A study of Mus musculus with 40 samples.

Results

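The serotonin receptor genes described here are Htr1a, Htr1b, Htr1d, Htr2a, Htr2c, Htr3a, Htr4, Htr5b, Htr6 and Htr7, 10 of the 55471 genes in the count table. They were chosen by name, as listed receptors of serotonin, with earlier results of these data known. All 10 had at least 1 count in every one of the 40 libraries, and all 10 passed the filter on low counts that left 18441 genes for testing. Htr1f, Htr2b, Htr3b and Htr5a, the serotonin receptor genes outside this set, were kept as a comparison list.

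Serotonin reaches the ventral tegmental area, a midbrain region known for its dopamine neurons, through axons of the raphe nuclei, and it acts there on receptors of several families. The receptors encoded by Htr1a, Htr1b, Htr1d and Htr5b signal through inhibitory Gi/o proteins, those of Htr2a and Htr2c through Gq and phospholipase C, and those of Htr4, Htr6 and Htr7 through Gs and cyclic AMP. Htr3a encodes a subunit of the only serotonin receptor that is an ion channel. Htr1a is also the somatodendritic autoreceptor of serotonin neurons, and Htr1b and Htr1d are found on axon terminals.

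Messenger RNA was sequenced in frozen punches labelled as ventral tegmental area from adult mice of the C57/Bl6 and DBA strains, male and female. In repeated cross fostering (RCF), pups were passed to a new adoptive mother every day from postnatal day 1 to postnatal day 4, and control litters were left unhandled. Strain, sex and treatment made 8 groups of 5 libraries: C57 male RCF, C57 male control, C57 female RCF, C57 female control and the same 4 groups in DBA. No genetic change or drug is given for any group. The labels name neither the animal nor the litter behind a library, so each p-value measures the spread between these libraries, which may be technical in part or shared within a litter.

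Libraries held 16913124 to 28179071 counts. Gene levels are CPM, the share of a gene in all counts, with library sizes scaled by the TMM factors of edgeR. Levels of different genes are compared only as RPKM, the same value per kilobase of exon. The tissue label was checked against marker lists, and the libraries were uneven. Th, the dopamine synthesis enzyme gene, ran from 0.725 to 1644 CPM, and the transporter gene Slc6a3 from 0.460 to 2959, so the defining markers of dopamine neurons were near 0 in some punches. Slc17a7, a glutamate transporter gene abundant in cortex, was over 400 CPM of total counts in 4 libraries: C57 male control 1 and 5, C57 female RCF 4 and DBA female control 3. Tph2, the serotonin synthesis enzyme gene of the raphe, was over 20 CPM of total counts in 3 libraries: C57 male control 3 and C57 female RCF 4 and 5. In a punch, fewer cells of a type and less RNA per cell cannot be told apart.

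Of the 5 receptor genes with a called strain difference, 4 had a promoter entry in RefSeq, and their upstream sequence is printed because they moved in the same direction between strains. The sequences come from the RefSeq table for GRCm38.p6, which matched 7 of the 10 members. They are those of the reference build and were not read from the libraries of either strain. Htr1d and Htr6 each had another RefSeq start, and the start nearest to that of GENCODE was used. Each runs 5′ to 3′ on the gene's own strand and ends just before the start of the gene. Htr1b lies at chr9:81633833-81634082 (minus strand), Htr1d at chr4:136423274-136423523 (plus), Htr6 at chr4:139075571-139075820 (minus) and Htr7 at chr19:36057508-36057610 (minus). Capitals mark the letters GGGCGG (GC box) or CCAAT on either strand.
Htr1b: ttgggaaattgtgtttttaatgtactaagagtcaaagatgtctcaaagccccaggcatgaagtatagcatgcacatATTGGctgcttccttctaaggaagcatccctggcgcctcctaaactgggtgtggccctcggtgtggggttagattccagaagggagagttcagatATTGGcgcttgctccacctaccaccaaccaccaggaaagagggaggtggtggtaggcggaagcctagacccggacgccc
Htr1d: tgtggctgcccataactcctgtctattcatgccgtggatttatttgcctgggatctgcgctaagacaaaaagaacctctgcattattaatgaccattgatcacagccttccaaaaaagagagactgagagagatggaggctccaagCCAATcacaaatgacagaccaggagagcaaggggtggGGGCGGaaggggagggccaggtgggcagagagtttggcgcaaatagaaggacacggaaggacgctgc
Htr6: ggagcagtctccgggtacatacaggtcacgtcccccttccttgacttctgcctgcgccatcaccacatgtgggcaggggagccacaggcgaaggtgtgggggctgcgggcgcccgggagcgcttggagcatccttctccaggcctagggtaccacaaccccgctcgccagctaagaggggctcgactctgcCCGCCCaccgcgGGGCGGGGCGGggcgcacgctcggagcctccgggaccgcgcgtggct
Htr7: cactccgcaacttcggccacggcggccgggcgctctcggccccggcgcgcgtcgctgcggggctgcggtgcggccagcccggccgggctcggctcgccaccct

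The printed Htr1b stretch held 2 CCAAT matches on its minus strand, and that of Htr1d held 1 GC box, 67 bases before the start, and 1 CCAAT, 104 bases before it. Htr6 held 3 GC boxes, at 42, 47 and 59 bases before its start, of which the first 2 overlap. The other letters searched on both strands were the TATA box, spelled TATAAA, with no match in these 4 windows of 250 bases, and the CRE half-site, spelled TGACG, with 1 match in the Htr7 window. Htr7 is printed for 103 bases only, since the nearer 147 bases of its window, the TGACG match included, lie inside the GENCODE gene. Over 32851 promoters of the same length, 32.7% held the GC box, 33.9% CCAAT, 17.8% TGACG and 12.4% TATAAA. The base composition differed: the windows of Htr7 and Htr6 had 41 and 23 CpG dinucleotides with 82.0% and 70.8% G or C. Those of Htr1b and Htr1d had 6 CpG each, with a median of 6 over all promoters. At the other RefSeq start of Htr1d the window had 20 CpG, 72.4% G or C and 3 GC boxes. At that of Htr6 it had 9 CpG, 55.2% G or C and no GC box. The contrast between Htr6 and Htr1d thus depends on the start chosen. No single motif was shared by the 4 genes. A match describes the letters only.

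The receptor genes spanned a wide range of levels per exon length. Htr2c (ENSMUSG00000041380.13, X:146962513-147197277, plus strand), the Gq-coupled receptor known for edited transcripts, was the highest with a median of 12.9 RPKM over 40 libraries (range 4.75 to 18.9). Htr7 (ENSMUSG00000024798.15, chromosome 19, 35958734 to 36057507, minus) followed at 7.62 RPKM (3.64 to 13.3) and Htr1a (ENSMUSG00000021721.5, chromosome 13, 105443639 to 105448122, plus) at 5.07 (1.03 to 12.8). Htr2c was above Htr7 in 36 of 40 libraries, and Htr7 above Htr1a in 29.

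Next came Htr1b (ENSMUSG00000049511.5, chromosome 9, 81628291 to 81633828, minus) at 2.52 RPKM and Htr2a (ENSMUSG00000034997.5, chromosome 14, 74640840 to 74709494, plus) at 2.40. This pair was not ordered: Htr1b was the higher in 23 of 40 libraries, with a mean log2 ratio of 0.017 ± 0.94 (SD, n = 40). The 5 remaining genes were lower. Htr6 (ENSMUSG00000028747.10, chromosome 4, 139061108 to 139075570, minus) had a median of 1.04 RPKM, Htr4 (ENSMUSG00000026322.9, chromosome 18, plus) 0.699 and Htr1d (ENSMUSG00000070687.11, chromosome 4, 136423524 to 136444398, plus) 0.688. Htr3a (ENSMUSG00000032269.8, chromosome 9, 48899213 to 48911099, minus) had 0.620 and Htr5b (ENSMUSG00000050534.8, chromosome 1, 121509842 to 121528465, minus) 0.414. Htr4 was above Htr1d in 20 of 40 libraries and Htr1d above Htr3a in 22, so these neighbours did not differ beyond their spread.

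**Figure D1:**
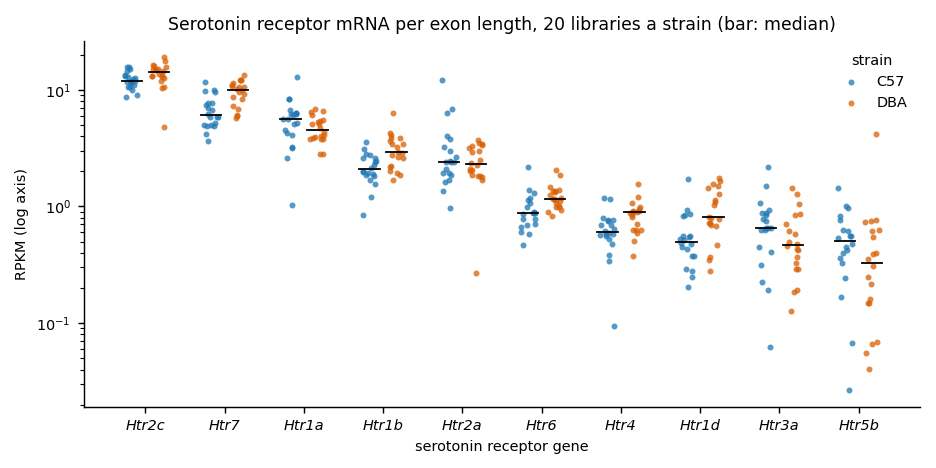
RPKM of the 10 serotonin receptor genes (log axis) in each of 40 libraries, with C57 in blue and DBA in orange and a bar at each strain's median. Genes stand in order of their median, from Htr2c at 12.9 to Htr5b at 0.414 RPKM, and Htr5b and Htr2a spread over the widest ranges on the log axis.

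The counts behind these levels and the spread between libraries both differed by gene. Htr2c had 998 to 4521 counts per library and Htr7 239 to 1053, while Htr3a had 3 to 104 and Htr5b 1 to 183. The ratio of the highest to the lowest library was 3.67 for Htr7 and 3.99 for Htr2c, but 35.1 for Htr3a, 44.6 for Htr2a and 157 for Htr5b. C57 female RCF 4, which was rich in both Slc17a7 and Tph2, was the lowest of the 40 libraries for Htr7, Htr1a, Htr1b, Htr6, Htr4 and Htr5b. Htr1b overlaps the exons of D430036J16Rik, an antisense gene, which had 989 counts over all libraries against 11701 for Htr1b. The strand setting of the counting is not given in the sources used here, so reads of this pair may be mixed.

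Htr1a, an inhibitory receptor gene, spread widely within some groups. Htr1a was highest in C57 male control 3 (57.4 CPM) and reached 37.3 CPM in C57 female RCF 5. Both were among the 3 libraries rich in Tph2, which had 22.1 and 236 CPM of total counts there. C57 male control 2, which was not rich in Tph2, also reached 37.0 CPM of Htr1a. Htr1a was at 4.61 CPM in C57 female RCF 4, which also held Tph2 (39.6 CPM of total counts) and had Hoxb5, a hindbrain and spinal cord gene, at 30.6 CPM of total counts. Hoxb5 had no count in 27 libraries.

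Of the Gq-coupled receptors, Htr2c was even and Htr2a was not. The group means of Htr2c lay between 105 and 144 CPM, and DBA female control 3, rich in Slc17a7, was its lowest library at 44.3 CPM. Htr2a was at 67.5 CPM in C57 male control 1 and 35.1 CPM in C57 female RCF 4, both rich in Slc17a7, against 7.64 to 21.2 and 5.39 to 15.0 CPM in the other 4 libraries of their groups. Yet C57 female control 1 had 38.5 CPM without being rich in Slc17a7, and DBA female control 3, rich in Slc17a7, had 18.4 CPM, within its group. The lowest Htr2a value, 1.52 CPM, was in DBA male control 4.

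**Figure D2:**
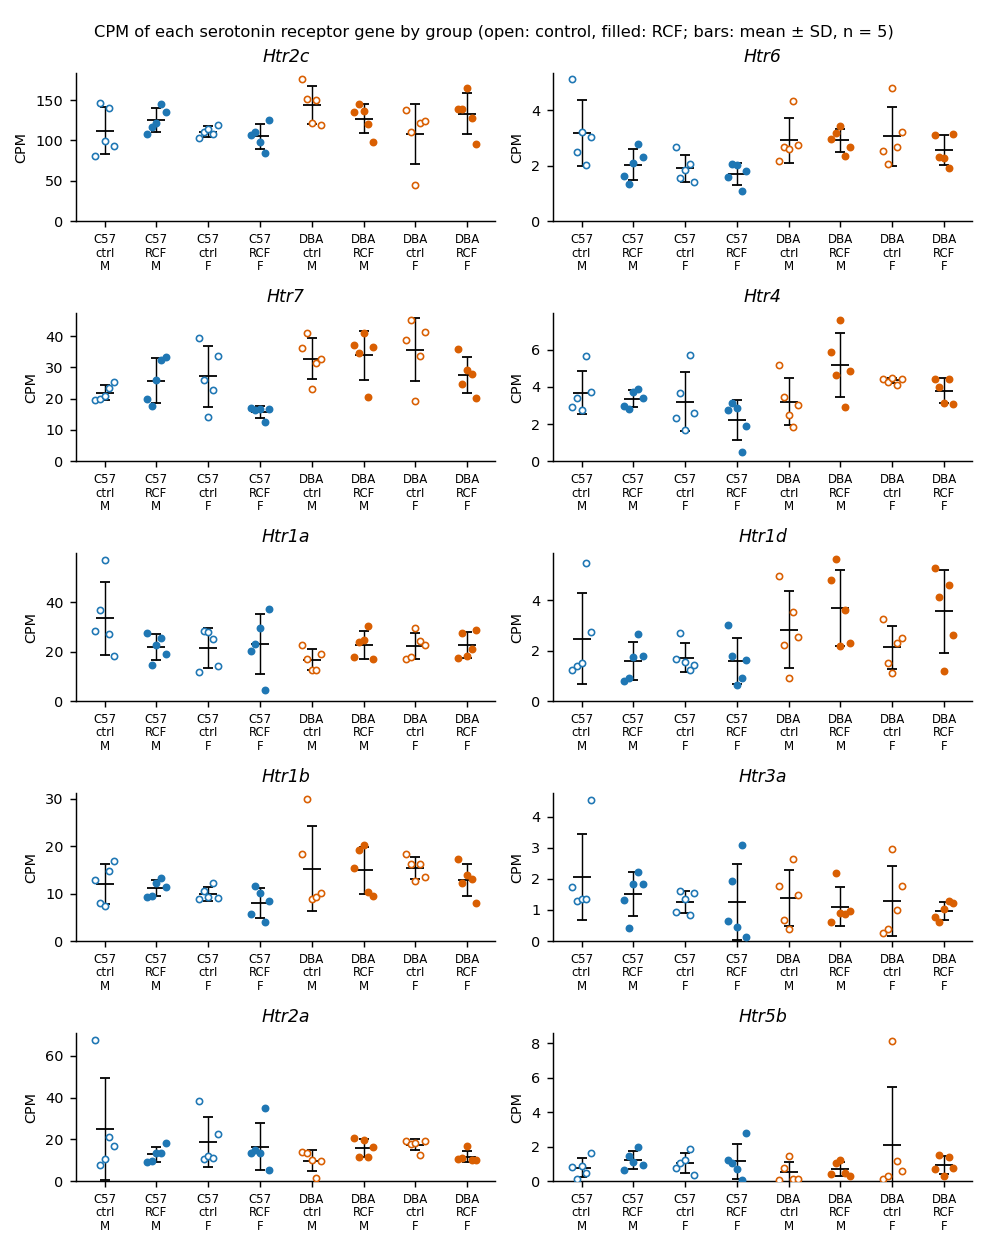
CPM of each receptor gene in the 8 groups, with open points for controls, filled points for RCF, blue for C57, orange for DBA, and the mean ± SD of 5 libraries in black (the lower bar is cut at 0 for Htr5b). The means of Htr7 and Htr1b stand higher in the DBA groups. Single libraries set the mean of Htr2a in C57 male controls and of Htr5b in DBA female controls. RCF and control points overlap in every pair of groups.

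Between strains, Htr7, Htr1b, Htr1d, Htr6 and Htr4 were higher in DBA, and no receptor gene was called lower. Over both sexes and treatments, 5 of 10 receptor genes passed the threshold (edgeR quasi-likelihood test, Benjamini-Hochberg adjusted p under 0.05 over 18441 genes). The background was high: 34.2% of all tested genes were called in this comparison and 17.1% were called higher in DBA. The median log2 fold change was 0.29 over the 10 receptor genes and 0.00021 over all tested genes.

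Htr7, a Gs-coupled receptor with a role in circadian and mood regulation, was at 12.4, 20.5 and 39.4 CPM (lowest, median, highest) in the 20 C57 libraries and at 19.3, 34.1 and 45.3 CPM in the 20 DBA libraries. In 18 of 20 DBA libraries it exceeded the C57 median, though the strains overlapped. The log2 fold change was 0.54 (SE 0.11, adjusted p = 2.18e-04). The difference of mean log2 CPM was positive in each of the 4 pairs of groups matched for sex and treatment, from 0.40 in RCF males to 0.78 in RCF females.

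Htr1b, the terminal autoreceptor, ran from 3.99 to 16.9 CPM in C57 (median 9.79) and from 7.93 to 29.9 CPM in DBA (median 13.7). DBA exceeded the C57 median in 16 of 20 libraries, and the log2 fold change was 0.52 (SE 0.15, adjusted p = 0.00514). The difference of mean log2 CPM was positive in 4 of 4 matched pairs of groups, from 0.25 in control males to 0.74 in RCF females. In control males, though, the DBA median of 10.2 CPM was below the C57 median of 12.9 CPM. D430036J16Rik, on the opposite strand, had medians of 0.860 CPM in C57 and 1.17 CPM in DBA.

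Htr1d, its close relative on chromosome 4, had the largest log2 fold change among the 10 genes, 0.72 (SE 0.23, adjusted p = 0.0121), with medians of 1.60 CPM in C57 and 2.57 CPM in DBA. The C57 libraries ran from 0.655 to 5.49 CPM and the DBA libraries from 0.902 to 5.61, so the ranges overlapped almost wholly. The difference of mean log2 CPM was 1.22 and 1.12 in RCF males and females but 0.24 and 0.26 in control males and females. The test of that contrast, the RCF effect in DBA against C57, is given below and did not pass.

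The Gs-coupled receptors Htr6 and Htr4 completed the called set, though Htr4 lost its call in 5 of 7 alternatives and in 22 of 40 fits that left out 1 library. Htr6 ran from 1.09 to 5.14 CPM in C57 (median 2.05) and from 1.93 to 4.80 in DBA (median 2.69), with 19 of 20 DBA libraries above the C57 median. The strains differed by 0.41 on the log2 scale (SE 0.12, adjusted p = 0.00963). Htr4 ran from 0.466 to 5.75 CPM in C57 (median 2.95) and from 1.84 to 7.63 in DBA (median 4.35), and a log2 difference of 0.41 (SE 0.16, adjusted p = 0.0435). In control males the matched difference of mean log2 CPM was -0.098 for Htr6 and -0.23 for Htr4, against positive differences in the other 3 pairs of groups.

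For the other 5 genes the strain difference was not past the threshold. Of these, Htr2c still had 17 of 20 DBA libraries above its C57 median, and the others had 4 to 9. The log2 fold changes were 0.17 (SE 0.094, adjusted p = 0.167) for Htr2c, -0.23 (SE 0.16, adjusted p = 0.299) for Htr1a and -0.40 (SE 0.24, adjusted p = 0.197) for Htr2a. They were -0.34 (SE 0.29, adjusted p = 0.405) for Htr3a and -0.19 (SE 0.40, adjusted p = 0.753) for Htr5b. Without the 4 libraries rich in Slc17a7 the value of Htr2a was -0.067 and that of Htr3a -0.17, and leaving out C57 male control 1 alone put Htr2a at -0.20.

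Marker lists were called in part between strains, where 34.2% of all genes were. Of the hypothalamus and mammillary body list, 4 of 9 genes were called higher in DBA and 0 lower, among them Pmch (log2 fold change 2.76) and Hcrt (3.76), neuropeptide genes of the lateral hypothalamus. The summed level of this list ran from 8.23 to 565 CPM in C57 and from 41.0 to 1234 CPM in DBA. Its genes Hcrt and Nkx2-1 had no count in 4 and 2 libraries. Of the dopamine neuron list 3 of 10 were called, all lower in DBA, Th among them (log2 fold change -1.94, adjusted p = 0.0458). That list's sum ran from 208 to 7461 CPM in C57 and from 245 to 9461 CPM in DBA. Of the 5 tested serotonin neuron markers, 3 were called lower in DBA, with Tph2 at -3.04 (adjusted p = 0.00148). The 3 libraries rich in Tph2 are all C57, and its medians were 0.633 CPM in C57 and 0.317 CPM in DBA, against means of 15.7 and 0.347 CPM. The sum of that list ran from 20.2 to 543 CPM in C57 and from 7.10 to 108 CPM in DBA. Oligodendrocyte markers were called lower in DBA for 5 of 6 genes, with sums of 6926 to 25140 and 3294 to 14170 CPM. Endothelial markers were called lower for 5 of 5 (median log2 fold change -0.31) and microglia markers for 3 of 5. Astrocyte markers were called lower for 3 of 5 and higher for 1, and those of the habenula and interpeduncular nucleus lower for 3 of 7 and higher for 1. The part of these glial, endothelial and habenula lists in the receptor differences was not tested.

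With the mean log2 CPM of the dopamine neuron, forebrain glutamate neuron, hypothalamus and hindbrain lists as covariates, 1 of 10 receptor genes was called between strains. Htr6 passed at a log2 fold change of 0.39 (adjusted p = 0.0328), close to its value without covariates. Htr7 was at 0.16 (adjusted p = 0.166), Htr1b at 0.25 (adjusted p = 0.221), Htr1d at 0.23 (adjusted p = 0.545) and Htr4 at 0.20 (adjusted p = 0.426). Under the same covariates 4382 genes were called, against 6299 without them. Without the 4 libraries rich in Slc17a7, 5 of 10 were called, with Htr4 no longer past the threshold (0.32, adjusted p = 0.0820) and Htr1a past it at -0.39 (adjusted p = 0.0182). Without the 3 libraries rich in Tph2, 4 of 10 were called, and Htr4 was at 0.29 (adjusted p = 0.110).

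**Figure D3:**
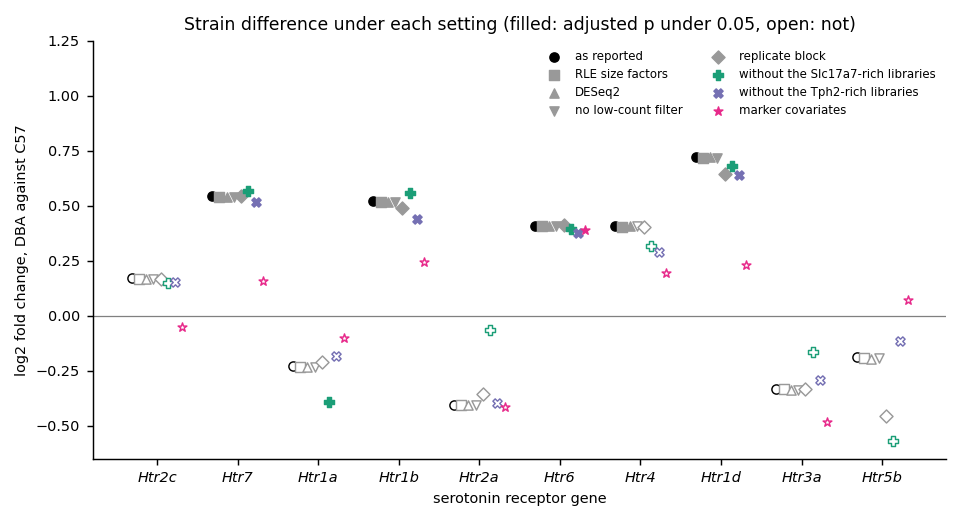
Log2 fold change of DBA against C57 for each receptor gene under 8 settings, filled where the adjusted p is under 0.05. Htr6 stays between 0.37 and 0.41 in all 8, while the stars, which mark the fit with marker lists as covariates, fall to 0.16 to 0.25 for Htr7, Htr1b, Htr4 and Htr1d.

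Whether early fostering left a difference in adult serotonin receptor mRNA was asked in each strain and sex. By edgeR, 0 of 10 receptor genes were called in C57 males, C57 females, DBA males or DBA females, and DESeq2 called 0 as well. Over all genes edgeR called 0.0108% in C57 males, 0.00542% in C57 females, 0.0163% in DBA males and 0.0163% in DBA females. These are 2, 1, 3 and 3 genes, where DESeq2 called 7, 85, 18 and 43. At an unadjusted p under 0.05 there were 1, 1, 1 and 0 receptor genes, and 7.07%, 12.5%, 6.72% and 12.3% of all genes. In no pair of groups did a receptor gene separate the 5 RCF from the 5 control libraries. How many of all tested genes did so was not counted, so nothing particular to the receptor genes follows.

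Htr7 in C57 females had the smallest p of the 40 tests of RCF in single groups. The RCF libraries were at 16.9, 16.5, 16.6, 12.4 and 16.8 CPM and the controls at 39.4, 25.9, 14.3, 22.8 and 33.6 CPM. RCF values were tight and low, and 4 of 5 controls stood above all of them. The log2 fold change was -0.78 (SE 0.22, unadjusted p = 0.00137, adjusted p = 0.211). The hypothalamus list was lower in these RCF libraries too: its mean log2 CPM was 0.75 ± 1.21 in RCF and 3.30 ± 2.11 in control C57 females (SD, n = 5), with sums of 8.23 to 77.8 and 45.9 to 565 CPM. With the 4 marker lists as covariates the log2 fold change of Htr7 was 0.017. In the other groups it was 0.24 (SE 0.22) in C57 males, 0.046 (SE 0.22) in DBA males and -0.37 (SE 0.22) in DBA females.

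The other Gs-coupled receptors had their smallest p in males. Htr6 in C57 males was at 1.64, 1.35, 2.12, 2.77 and 2.30 CPM after RCF and at 5.14, 2.504, 3.22, 2.04 and 3.05 CPM in controls. The log2 fold change came to -0.65 (SE 0.25, unadjusted p = 0.0131, adjusted p = 0.642). The highest control, replicate 1, was rich in Slc17a7, the value was -0.41 without it, and the groups overlapped. Htr4 in DBA males was at 5.87, 4.67, 7.63, 2.91 and 4.89 CPM after RCF and at 5.20, 3.45, 2.49, 1.84 and 3.05 CPM in controls. The log2 fold change was 0.69 (SE 0.32, unadjusted p = 0.0360, adjusted p = 0.738). It was -0.52 (SE 0.32) in C57 females, where RCF replicate 4 had 0.466 CPM and control 4 had 5.75 CPM. It was -0.26 without the former and -0.20 without the latter.

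Among the inhibitory receptors, Htr1a was at -0.62 (SE 0.33, adjusted p = 0.714) in C57 males, and at -0.35 there without control 3, which had the highest value and held Tph2. It was at 0.44 (SE 0.33), 0.098 (SE 0.33) and 0.018 (SE 0.33) in DBA males, C57 females and DBA females. Htr1b had a negative value in 4 of 4 comparisons, between -0.32 and -0.037 with an SE of 0.29 in each. The lowest, in C57 females, was -0.14 without RCF 4. Htr1d was at -0.65 (SE 0.46) in C57 males and -0.088 (SE 0.46) in C57 females, but at 0.39 (SE 0.44) in DBA males and 0.73 (SE 0.45) in DBA females. Without control 4, at 5.49 CPM, the value in C57 males was -0.12. Htr5b, with the fewest counts, had SEs of 0.79 to 0.84 and a value of -1.15 in DBA females, where control 3 had 8.13 CPM and the other 4 controls 0.133 to 1.19. Without that library the sign turned, to 0.72.

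For the Gq-coupled receptors and the channel subunit the values were as uneven. Htr2a was at -0.96 (SE 0.48, adjusted p = 0.711) in C57 males, where control 1 held 67.5 CPM, and at -0.14 without that library. It was at 0.71 (SE 0.48) in DBA males, and at 0.44 there without control 4. Htr2c stayed between -0.18 and 0.31 in the 4 comparisons, with SEs of 0.19, and the highest, in DBA females, was 0.11 without control 3. Htr3a, the channel subunit gene, had a negative value in 4 of 4 comparisons, between -0.43 and -0.018, with SEs of 0.58 to 0.59.

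**Figure D4:**
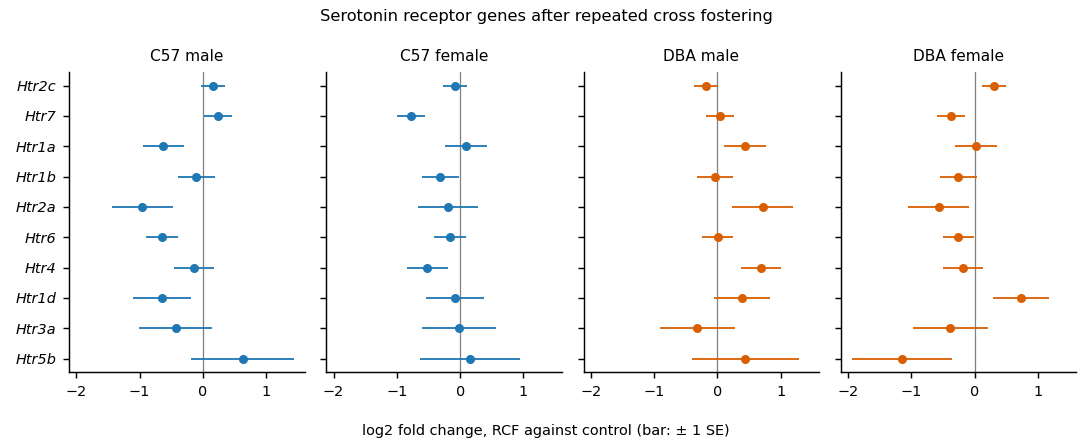
Log2 fold change of RCF against control for each receptor gene in the 4 combinations of strain and sex, with bars of 1 SE. The bar of Htr7 in C57 females, at -0.78, lies farthest from 0 in units of its SE, and the bars of Htr3a and Htr5b are the longest.

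Averaged over strains and sexes, the RCF effect called 0 of 10 receptor genes by edgeR and by DESeq2, where edgeR called 0.0217% of all genes. At an unadjusted p under 0.05 there was 1 receptor gene, beside 6.95% of all genes. That one was Htr6 at -0.26 (SE 0.12, adjusted p = 0.700), and Htr7 was at -0.22 (SE 0.11, adjusted p = 0.706). Htr6 was at -0.10 without the 4 libraries rich in Slc17a7, and Htr7 at -0.071 with marker covariates. The median over the 10 genes was -0.11, and -0.0071 over all tested genes. These means draw on the same libraries as the 4 single comparisons.

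The RCF effect was also compared between strains and between sexes. Between strains 0 of 10 receptor genes were called by either tool, beside 0.0108% of all genes by edgeR. The number with an unadjusted p under 0.05 was 1, beside 6.003% of all genes. Htr1d had the smallest p: its RCF effect was higher in DBA than in C57 by 0.93 on the log2 scale (SE 0.45, unadjusted p = 0.0470, adjusted p = 0.828), and by 0.49 with marker covariates. Between sexes 0 of 10 were called by either tool, beside 0.00542% of all genes by edgeR. An unadjusted p under 0.05 was found for 1, beside 8.48% of all genes. Htr7 was that gene, with an effect lower in females by a log2 difference of -0.72 (SE 0.22, unadjusted p = 0.00272, adjusted p = 0.464). With marker covariates that difference was -0.20.

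Between sexes, 0 of 10 receptor genes were called by edgeR or DESeq2 over strains and treatments, and edgeR called 0.146% of all genes. At an unadjusted p under 0.05 there was 1 receptor gene, beside 9.68% of all genes. Female values were the lower ones for 8 of 10 genes, while 48.9% of all tested genes were higher in females. Htr6 was at -0.27 (SE 0.12, unadjusted p = 0.0327, adjusted p = 0.466), with medians of 2.07 CPM in females and 2.68 CPM in males. Htr2c, which lies on the X chromosome, was at -0.15 (SE 0.094, adjusted p = 0.645), with medians of 112 and 128 CPM.

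The serotonin receptor genes outside the set were sparse or even. Htr5a, a Gi/o-coupled relative of Htr5b, had 13.8 to 26.6 CPM and a median of 3.23 RPKM, above that of Htr1b. Htr1f had 0.108 to 3.49 CPM. Htr2b and Htr3b, the second channel subunit gene, did not pass the filter and had no count in 32 and 31 libraries. Of the 2 tested, 0 were called in any of the 9 comparisons.

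Genes that make, carry and break down serotonin were read as a list of 9, of which 7 were tested. In the 4 RCF comparisons 0 were called, and Tph2 in C57 females was at 6.88 (SE 1.43, adjusted p = 0.0689), a value set by replicates 4 and 5 of the RCF group. Between strains, where 34.2% of all genes were called, 3 of 7 were called lower in DBA and 0 higher: Tph2, Maoa, which breaks down serotonin, at -0.21 (adjusted p = 0.0332), and Gch1, which makes the cofactor of Tph2, at -1.52 (adjusted p = 0.0464). The serotonin transporter gene Slc6a4 did not pass the filter, with no count in 20 libraries and up to 159.6 CPM in the highest. Ddc, Gch1, Slc18a2 and Maoa also serve dopamine neurons.

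Genes downstream of the receptors were called between strains, where 34.2% of all genes were. Of 11 genes of the Gs pathway, 5 were called higher in DBA and 0 lower, among them Adcy3 at 0.19 (adjusted p = 0.00296) and Gnas, the Gs alpha gene, at 0.19 (adjusted p = 0.00344). Prkaca, a protein kinase A gene, was at 0.12 (adjusted p = 0.00781) and Adcy8 at 0.23 (adjusted p = 0.0132). Of 9 Gi/o and potassium channel genes 1 was called, Kcnj9, a channel subunit gene, at 0.33 (adjusted p = 0.0486). Of 10 tested partners and regulators 2 were called higher, which are not named here, and 2 lower. The lower ones were S100a10, which binds the Htr1b and Htr4 receptors, at -0.90 (adjusted p = 1.86e-06) and Mpdz, a scaffold of the Htr2c receptor, at -0.39 (adjusted p = 4.45e-07). The median log2 fold change was 0.15 for the Gs list, -0.032 for the Gi/o list and 0.028 for the partners, beside 0.00021 over all genes. In the RCF comparisons and interactions 0 genes of these 3 lists were called.

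Within groups, single receptor genes varied with the marker lists of the punch. Deviations from the group mean of log2 CPM were compared with those of the dopamine neuron and hypothalamus lists over 40 libraries, 20 relations in all, with permutations within groups and adjustment over the 20. Htr7 rose with the hypothalamus list (Pearson r = 0.61, adjusted permutation p = 0.00140; Spearman rho = 0.57, adjusted permutation p = 0.00620). Without the 2 libraries farthest from the list's median r was 0.51. Htr3a fell as the dopamine neuron list rose (r = -0.59, adjusted permutation p = 0.00140; rho = -0.52, adjusted permutation p = 0.00620), and r was -0.46 without the 2 farthest. In 3 further relations Spearman's rho alone passed: Htr2a and Htr7 with the dopamine list (rho = -0.47 and -0.46, both with adjusted permutation p = 0.0314) and Htr5b with the hypothalamus list (rho = -0.49, adjusted permutation p = 0.0271). Htr1a with the dopamine list had r = 0.51 but did not pass (adjusted permutation p = 0.0734). Dopamine and hypothalamus content come from the same punch and are not independent of each other.

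**Figure D5:**
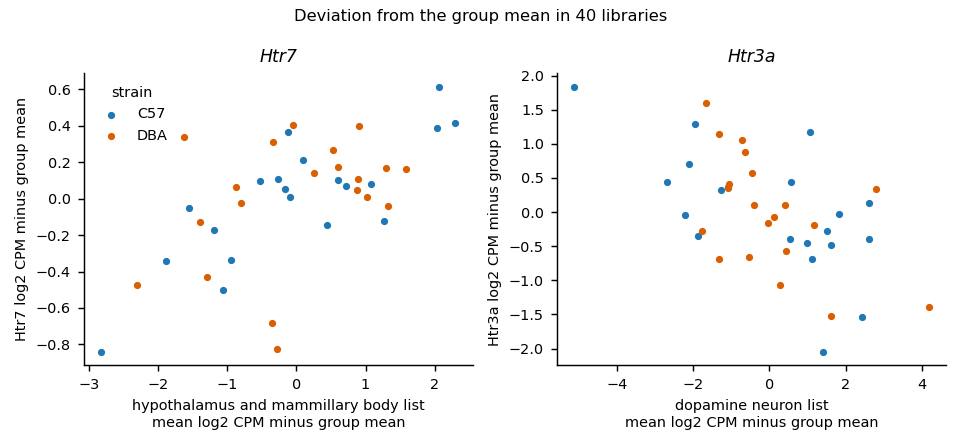
Deviation of Htr7 from its group mean (log2 CPM) against that of the hypothalamus and mammillary body list, and of Htr3a against the dopamine neuron list, 1 point per library, C57 in blue and DBA in orange. Htr7 points rise from left to right (r = 0.61) and Htr3a points fall (r = -0.59).

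Among themselves the receptor genes varied partly together. Over the 45 pairs of deviations, Spearman's rho was highest for Htr1b with Htr4 (0.66) and Htr1b with Htr7 (0.50) and lowest for Htr1a with Htr2a (-0.46), all over the same 40 libraries and so sharing their depth and tissue content. Among 14632 named protein-coding genes, the pattern most like Htr7 was that of Tshz2 (rho 0.80), then Rnd3 (0.76) and Hnrnpd (0.71). Htr2a was most like Mme (0.78), Gopc (0.78) and Cdh22 (0.75), and Htr1b most like Lypd6b (0.78), L3mbtl3 (0.74) and Rgl1 (0.73). Htr4 was nearest to Stk26 (0.76), Htr5b to Plcb1 (0.72), Htr2c to Smarca5 (0.70), Htr1a to Ndst3 (0.69), Htr6 to Stxbp4 (0.68), Htr3a to Unc5a (0.66) and Htr1d to Spata3 (0.59). These values are descriptions of the libraries, and nothing about shared control follows from them.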

How the data were processed

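Per the labels' protocols, RNA from frozen punches was made into stranded messenger RNA libraries and read as single ends of 75 nt. The submitters' processing notes name bcl2fastq 2.20, cutadapt 1.11, FastQC and the build GRCm38. No source used here gives the aligner, the counter or its strand setting. The authors deposited whole-number read counts per gene, not normalized. Symbols, coordinates and exon lengths come from GENCODE M21 (GRCm38).

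All 40 libraries entered 1 model with a mean per group (edgeR 4.0.16, R 4.3.3: TMM, filterByExpr, robust quasi-likelihood F test, 32 residual degrees of freedom). P-values were adjusted by Benjamini-Hochberg over 18441 genes for each of 9 comparisons, with a threshold of 0.05. Every adjusted p is from this test unless another is named. Log2 CPM used a prior count of 2. Alternatives were RLE size factors, no filter, DESeq2 1.42.0, a replicate block, marker covariates, only the 2 groups compared, and each library left out. The Slc17a7 and Tph2 limits, 400 and 20 CPM of total counts, were set after seeing the data. The tests were also run on simulated counts, with an outcome not given here. Those counts were drawn independently for each gene and library, without shared tissue content. They cannot show how the tests hold for punches as uneven as these.

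All 10 receptor genes were named. From each pathway list, up to 4 genes of the smallest p past the threshold were named, and for likeness the 3 genes of the highest Spearman rho. The results of the list of Gq effectors are not reported here. The members and lists were chosen with earlier results of these data known. No 2 libraries of a group agreed within sampling noise: over 80 pairs, the chi-square was 5.51 to 141 times its degrees of freedom.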

Additional observations from a re-analysis of the deposited data

Results flagged for a closer look

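Each receptor gene was checked in each group of 5 for a library far from the other 4 (Dixon's ratio above 0.71), which chance gives in about 1 in 20 of the 80 groups checked. There were 8 such values. Htr2a was high in C57 male control 1 (67.5 CPM, others 7.64 to 21.2), a library rich in Slc17a7, and in DBA female RCF 3 (16.7 CPM, others 10.03 to 11.3), and low in DBA female control 4 (12.7 CPM, others 17.8 to 19.3). Htr3a was high in C57 male control 5 (4.54 CPM, others 1.295 to 1.75), also rich in Slc17a7, and in DBA male RCF 2 (2.198 CPM, others 0.610 to 0.959). Htr5b was high in DBA female control 3 (8.13 CPM, others 0.133 to 1.19), rich in Slc17a7. Htr6 was high in DBA male control 4 (4.33 CPM, others 2.19 to 2.76). Htr7 was low in C57 female RCF 4 (12.4 CPM, others 16.5 to 16.9), rich in Slc17a7 and Tph2. Of the 8 values, 4 lie in libraries rich in Slc17a7. What part that tissue had in them was not tested.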

How the results depend on the processing

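The number of receptor genes called stayed at 0 under every alternative in the 8 comparisons other than strain. Between strains it was 5 as reported, 1 with marker covariates, 4 with a replicate block, no filter or without the Tph2-rich libraries, and 4 to 6 when 1 library was left out. Htr4 missed the threshold in 22 of the 40 fits that left out 1 library (adjusted p 0.0127 to 0.0919 over the 40), with the replicate block (0.405, adjusted p = 0.0606) and without the filter (adjusted p = 0.0634), and Htr2c passed without DBA female control 3 (0.22, adjusted p = 0.0157). Of 2226 recomputed fold changes of the 47 results more than 1 SE from 0, 9 changed sign. Results nearer to 0 were left out of this count. Among those was Htr5b between strains, at -0.19 as reported and 0.069 with marker covariates. With marker covariates Htr1b, Htr4 and Htr7 in C57 females were at 0.25, 0.039 and 0.017, Htr5b in DBA females at 0.78, Htr1b at 0.039 for the mean RCF effect and 0.024 for sex, and Htr2c at -0.053 for strain. Htr5b in DBA females was at 0.72 without the Slc17a7-rich libraries and from -1.45 to 0.72 when 1 library was left out, with the sign turned without control 3 alone. The cause of these changes was not tested.

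Replicate numbers are shared between groups, but most same-numbered libraries did not deviate together. Correlations ran from -0.44 to 0.35, over 0.1 in 4 of 20 pairs, and a library correlated best with its own number in 4 of 20. In DBA males numbers 1, 2 and 5 did so (0.35, 0.24 and 0.13), while numbers 3 and 4 had -0.083 and -0.25. Nothing in the labels ties together the libraries that the replicate block pairs. Counts over all genes moved by tool: DESeq2 called 7, 85, 18 and 43 genes in C57 males, C57 females, DBA males and DBA females, 11 for the mean, 65 for sex and 8 for RCF between sexes, against 2, 1, 3, 3, 4, 27 and 1 by edgeR. The alternatives other than DESeq2 gave as few as 0 in C57 males and in C57 females, 1 to 10 in DBA females, 17 to 42 for sex and up to 3 for RCF between sexes, and leaving out 1 library gave 0 to 27 in C57 females (27 without control 3), 1 to 13 in DBA females (13 without DBA male control 4), 3 to 7 in DBA males and 2 to 5 in C57 males. RCF between strains gave 2 as reported and 1 to 4 otherwise. Htr3a and Htr5b, the genes of the lowest counts, had the largest SEs, 0.58 to 0.84 in the RCF comparisons. What part the low counts had in that was not tested.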
